A study of Arabidopsis thaliana with 6 samples.

Results

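Regions of HA-PRR7 enrichment were examined at 7 genes that encode regulators from outside the core circadian clock: OBP4 (AT5G60850), AGL44 (AT2G14210), ERF38 (AT2G35700), ATHB54 (AT1G27045), NF-YB2 (AT5G47640), NF-YA4 (AT2G34720) and JAZ6 (AT1G72450). A region was counted for a gene when its summit, the position of its highest signal, lay inside the gene or within 3000 bp of it. By this rule the genes held 23 of the 1563 regions in the 4 deposited lists. The genes were picked because HA-PRR7 regions beside them had already been found in both experiments, so their presence in the lists is how they were chosen and is given as a description, with no test.

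The lists come from anti-HA chromatin immunoprecipitation and sequencing (ChIP-seq) of whole Arabidopsis thaliana seedlings aged 15 days, raised in 12 h of light and 12 h of dark at 70 µmol m-2 s-1 on agar with sucrose at 2%. The tagged plants, prr7-3 PRR7::HA-PRR7 #151, carry HA-PRR7 under the promoter of PRR7 itself in the prr7-3 mutant. They are a single transgenic line, and the untagged prr7-3 mutant lacks HA-PRR7, so both genotypes share the prr7-3 mutation. Experiment 1 also has 1 input sample for each line, and experiment 2 has no input among the 6 samples. Which library served as the control of each list is not stated. Control signals and control tags may therefore come from unlike kinds of library in the 2 experiments. HA-PRR7 had 1 immunoprecipitate (IP) in each of 2 experiments. Experiment 2 has 2 deposited lists of the same sample, named KC and TL, which count as 1 replicate. Lists were used for 3 of the 6 samples, the third being the prr7-3 IP of experiment 1, and no list of the experiment 2 mutant IP was used here. The sources used here give no harvest time and do not say whether the experiments used separately grown plants.

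PRR7 belongs to the pseudo-response regulators, nuclear proteins that follow one another through the day and repress transcription of the morning clock genes CCA1 and LHY. Clock proteins also act on genes outside the oscillator, and among these outputs are genes for other transcription factors, through which time of day can reach growth, nutrition, flowering and defence. Whether the genes described here are clock outputs in that sense was not measured. OBP4 is a Dof zinc finger factor, AGL44 (also called ANR1) a MADS-box factor of the root response to nitrate, ERF38 an AP2/ERF factor and ATHB54 a homeodomain-leucine zipper (HD-Zip) factor. NF-YB2 and NF-YA4 encode subunits of nuclear factor Y (NF-Y), the trimer that binds CCAAT boxes. JAZ6 is a repressor of jasmonate responses that is destroyed when the hormone is perceived.

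Each of the 7 genes had a region in HA-PRR7 experiment 1, in KC and in TL that overlapped between the lists, and none had a region in prr7-3. These are 7 of the 70 reproducible regions, meaning regions of experiment 1 that overlap a region of both KC and TL and none of prr7-3. The genes were chosen with this known, the prr7-3 list included, so absence from that list is no independent control. Over all 27444 nuclear protein-coding genes, 0.561% had a reproducible region within 3000 bp. Regions of both KC and TL lay near 2.34% of these genes. The share with any region was 5.01% in HA-PRR7 experiment 1, 2.9% in KC, 2.71% in TL and 1.03% in prr7-3. The remaining 2 of the 23 regions were single-list regions, 1 near OBP4 in TL and 1 near ERF38 in experiment 1. The prr7-3 region nearest to any of the 7 lay 51.0 kb from the NF-YB2 summit, and the distance for OBP4 was 1748 kb. Absence from the prr7-3 list shows that no region was called there, where the lowest listed IP signal was 10.01, and gives no level for the mutant at these places. In whole seedlings, strong enrichment in few cells and weak enrichment in many cannot be told apart.

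Depth differed between the experiments. In the values from which the deposited tag enrichment was formed, the uniform background per 300 bp came to 2.31 IP tags (aligned reads) in HA-PRR7 experiment 1, 10.1 in KC, 10.2 in TL and 3.61 in prr7-3. One control tag counted as 0.150 IP tags in HA-PRR7 experiment 1 and as 11.8 in KC and 12.3 in TL, so the control was deep in experiment 1 and thin in experiment 2. Fold enrichment, the IP signal over the control signal at the summit with controls below 1 set to 1, is therefore not on one scale in both experiments. The control signal was below 1 at 2 of the 7 genes in experiment 1 and at all 7 in KC and in TL, where the fold is simply the IP signal. Signals and folds are those of the authors' caller, in units whose scaling is not stated, so levels of the experiments are set side by side and not compared. Each list is 1 library, so intervals on tags cover counting error only.

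The Dof factor gene OBP4, whose product restrains cell growth, had its region beside the gene on chromosome 5 at 24478665 to 24478993 in experiment 1 (TAIR10). The IP signal was 17.3 in experiment 1, 16.5 in KC and 21.5 in TL, against control signals of 0.612, 0 and 0.0858. The region held 25 IP tags in experiment 1 (95% interval 16.2 to 36.9), 112 in KC (92.2 to 134.8) and 130 in TL (108.6 to 154.4). OBP4 was the only one of the 7 among the 20 highest folds of experiment 1, where it ranked 17 of 685, and it ranked 78 of 380 in KC and 37 of 355 in TL. Its experiment 1 rank was 35 by IP tags, behind AGL44 and NF-YA4, 38 by q value and 32 by fold with 1 added to both signals, so it was outside the 20 highest by each of these. By IP tags it ranked 59 in TL. The summit lay 1489 bp from OBP4 in experiment 1, 1504 bp in KC and 1507 bp in TL, and the next protein-coding gene, AT5G60840, was 4278 bp from the experiment 1 summit. It was also the only one of the 7 whose region was wider in experiment 1 (329 bp) than in KC (284 bp) and TL (305 bp).

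A second OBP4 region stood on the opposite side of the gene in TL alone, on chromosome 5 at 24482273 to 24482513. It held 68 IP tags (52.8 to 86.2) and 0 control tags, with 10.3-fold enrichment and rank 279 of 355. Its summit was 232 bp from OBP4 and inside the long non-coding RNA gene AT5G08975. No region of experiment 1 or of KC overlapped it.

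AGL44, the nitrate-responsive MADS-box gene, had the strongest region of the 7 in experiment 2. Its IP signal was 20.5 in experiment 1, 44.3 in KC and 44.5 in TL, the highest of the 7 in each list, with control signals of 1.66, 0 and 0.0187. The region of experiment 1 covered chromosome 2 from 6018050 to 6018618 and held 40 IP tags (28.6 to 54.5), against 436 in KC (396.0 to 478.9) and 410 in TL (371.3 to 451.7). It ranked 8 of 380 by fold in KC and 9 of 355 in TL, but 105 of 685 in experiment 1. The region held 35 control tags in experiment 1, the most of the 7, but was also the widest of them. Fold uses the control signal at the summit instead, and that of AGL44 (1.66) was below those of NF-YB2 (1.71) and NF-YA4 (1.99). By IP tags alone the AGL44 region ranked 24 in experiment 1 and 6 in both KC and TL.

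The AGL44 summit lay 188 bp from the gene in experiment 1, 165 bp in KC and 168 bp in TL, and the regions were the widest of the 7, at 569, 644 and 673 bp. They ran past the gene's edge, covering 61 bp of it in experiment 1, 103 bp in KC and 129 bp in TL. The neighbours on both sides are pseudogenes more than 3000 bp away, the nearest being AT2G14200 at 5672 bp, and the next protein-coding gene, AT2G14247, was 15912 bp from the summit. AGL44 is thus the 1 protein-coding gene within reach of its region.

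ERF38, which encodes an AP2/ERF factor of the DREB subfamily, had the fewest IP tags of the 7 in each list. Its region on chromosome 2 at 15007987 to 15008104 held 9 IP tags in experiment 1 (4.12 to 17.1), 52 in KC (38.8 to 68.2) and 59 in TL (44.9 to 76.1). The IP signal was 12.0, 13.7 and 15.7 in the same order, with control signals of 0.541, 0 and 0. The regions were also the narrowest of the 7, at 118 bp in experiment 1, 163 bp in KC and 170 bp in TL. By fold the region ranked 133 of 685 in experiment 1, 137 of 380 in KC and 93 of 355 in TL, and by IP tags 398, 335 and 267, so a narrow region of moderate height ranked far lower by tags than by fold.

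The ERF38 summit was 2011 bp from ERF38 and 2662 bp from PGSIP7 on the other side, in a stretch with no gene in the table used. A further region of experiment 1 alone lay in the same stretch, on chromosome 2 at 15008602 to 15008723, with 8 IP tags (3.45 to 15.8), 10 control tags and 8.37-fold enrichment. Its summit was nearer to PGSIP7 (2050 bp) than to ERF38 (2623 bp). That distance was the largest of the 23 regions. The nearest region outside the limit of 3000 bp was 3664 bp from AGL44, also in experiment 1 alone, with 8 IP tags and 10.9-fold enrichment.

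ATHB54, a class I HD-Zip gene, was lower by IP signal than each of the other genes except NF-YB2 in KC and TL. Its signal was 12.8 in experiment 1, 12.8 in KC and 12.5 in TL, with control signals of 1.01, 0 and 0. The region of experiment 1, on chromosome 1 at 9393401 to 9393597, held 13 IP tags (6.92 to 22.2), against 82 in KC (65.2 to 101.8) and 79 in TL (62.6 to 98.5). It ranked 84 of 685, 161 of 380 and 171 of 355 by fold, and 253 in experiment 1 with 1 added to both signals. The summit fell in the gap between ATHB54 and AT1G27050, 290 bp from the first and 175 bp from the second, and in KC and TL too AT1G27050 was the closer gene, at 173 and 166 bp. Of the 7 genes, ATHB54 was the 1 that was not the nearest protein-coding gene to its own region.

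**Figure D1:**
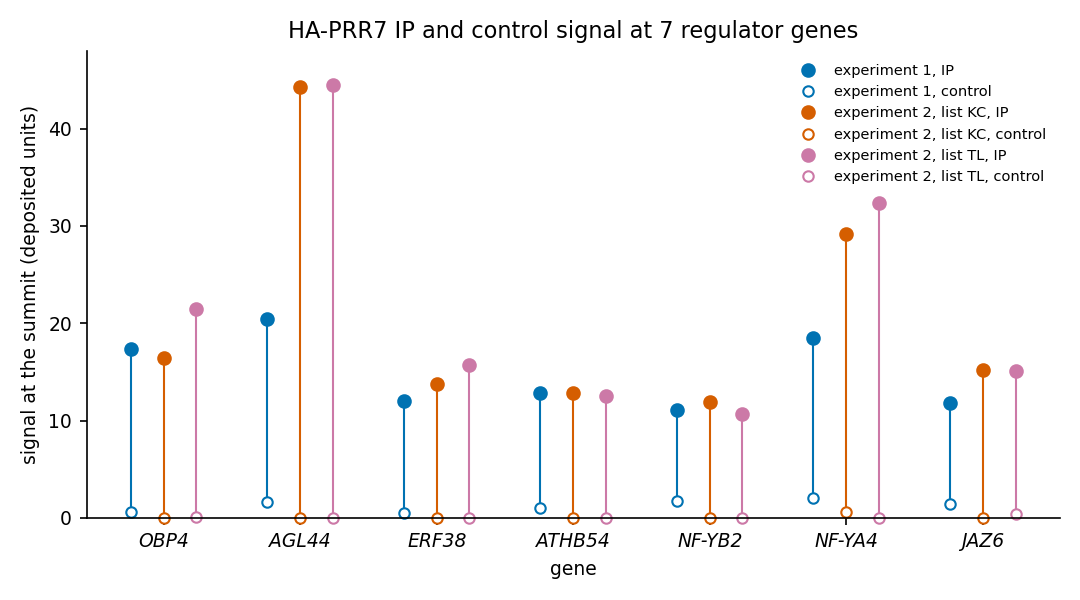
IP signal (filled) and control signal (open) at the summit, in the units of the deposited lists, for the region shared by the 3 HA-PRR7 lists at each of the 7 genes; each point is 1 list and carries no replicate error. AGL44 and NF-YA4 stand above the others in KC and TL, at 44.3 and 44.5 and at 29.2 and 32.3, and control signals in experiment 1 reach 1.99.

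The genes for NF-Y subunits differed in listed signal, and both had the summit a short way outside the gene. NF-YA4 encodes an A subunit, the one that contacts the CCAAT box, and NF-YB2 a B subunit, which pairs with a C subunit through a histone fold and promotes flowering together with CONSTANS. At NF-YA4 the IP signal was 18.5 in experiment 1, 29.2 in KC and 32.3 in TL, with control signals of 1.99, 0.551 and 0.0209. At NF-YB2 the IP signal was 11.1, 11.9 and 10.7 in the same order, with control signals of 1.71, 0 and 0. The NF-YA4 signal was above the NF-YB2 signal in each list.

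The NF-YA4 region, on chromosome 2 at 14651776 to 14652116 in experiment 1, held 30 IP tags there (20.2 to 42.8), 213 in KC (185.4 to 243.6) and 218 in TL (190.0 to 248.9). It ranked 20 of 380 by fold in KC and 13 of 355 in TL. With 1 added to both signals the KC rank was 50, and by IP tags the TL rank was 20. In experiment 1 it ranked 422 of 685 by fold but 28 by IP tags and 26 by q value. Its control signal at the summit was the highest of the 7 in that list, while the region as a whole held 16 control tags and its tag enrichment of 11.5 was the highest of the 7. Its place in experiment 1 thus differed with the measure. The summit lay 146 bp from NF-YA4 in experiment 1, 199 bp in KC and 196 bp in TL, and AT2G34730 on the other side was 2302 bp away.

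The NF-YB2 region, on chromosome 5 at 19308928 to 19309085 in experiment 1, was the lowest of the 7 by fold in every list, at 6.51-fold in experiment 1 (rank 552 of 685), 11.9-fold in KC (rank 191 of 380) and 10.7-fold in TL (rank 254 of 355). It held 11 IP tags in experiment 1 (5.49 to 19.7), 104 in KC (85.0 to 126.0) and 100 in TL (81.4 to 121.6). By IP tags it stood higher, at rank 199 in experiment 1, 99 in KC and 107 in TL. The listed width was 158 bp in experiment 1, 489 bp in KC and 510 bp in TL, and in KC and TL it reached 19 and 26 bp into the gene. The summit was 203 bp from NF-YB2 in experiment 1, 129 bp from the long non-coding RNA gene AT5G07015, and 1015 bp from AT5G47635.

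JAZ6 belongs to the JASMONATE ZIM-DOMAIN (JAZ) proteins, which hold back jasmonate-responsive transcription factors until the hormone receptor marks them for degradation. Its IP signal was 11.8 in experiment 1, 15.2 in KC and 15.1 in TL, with control signals of 1.37, 0 and 0.343. The region of experiment 1, on chromosome 1 at 27276977 to 27277130, held 13 IP tags (6.92 to 22.2), against 125 in KC (104.0 to 148.9) and 120 in TL (99.5 to 143.5). By fold it ranked 461 of 685, 98 of 380 and 105 of 355. The experiment 1 rank was 118 by IP tags and by q value, and the TL rank was 221 with 1 added to both signals. Its width was 505 bp in KC and 476 bp in TL against 154 bp in experiment 1. NF-YB2 differed in the same direction, as did the median of the other 63 reproducible regions (359 and 361 bp against 209 bp). Depth differed between the experiments, so the difference in width is not read as a trait of these genes. The summit was 502 bp from JAZ6 in experiment 1, 472 bp in KC and 480 bp in TL. A long non-coding RNA gene, AT1G09307, held the summits of KC and TL, and the experiment 1 summit was 21 bp outside it.

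**Figure D2:**
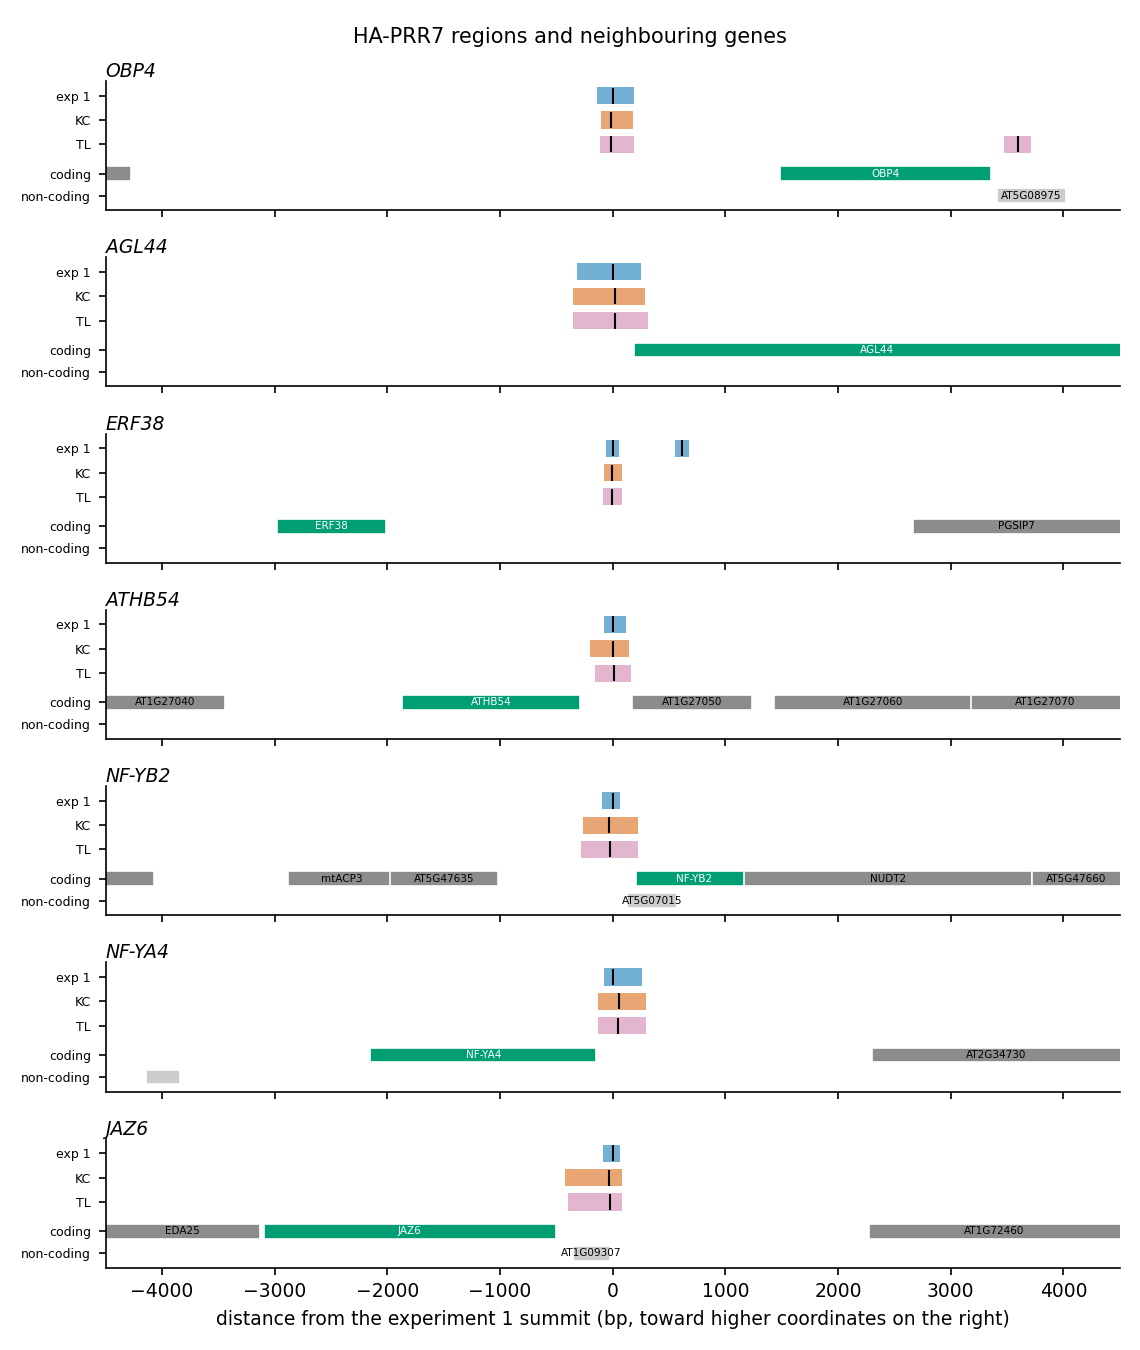
Regions of HA-PRR7 experiment 1 (blue), KC (orange) and TL (pink), with a black tick at each summit, above the protein-coding genes (the named gene in green, others in dark grey) and non-coding genes (light grey) of the gene table; the horizontal axis is the distance in bp from the experiment 1 summit of each region. In each of the 7 panels the summits of the 3 lists fall between protein-coding genes and within 53 bp of each other, and the single-list regions near OBP4 and ERF38 stand apart.

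Summit positions can differ only within regions that overlap, since overlap in the 3 lists chose the genes, so the values here describe position and test nothing. The summits spanned 9 bp at ERF38 and at ATHB54, 18 bp at OBP4, 23 bp at AGL44, 28 bp at NF-YB2, 30 bp at JAZ6 and 53 bp at NF-YA4. Their median, 23 bp, stood beside 31 bp for the other 63 reproducible regions, whose spans ran from 2 to 337 bp. KC and TL, from the same sample, placed each summit within 3 to 8 bp of each other. At 6 of the 7 genes the experiment 1 region lay wholly inside the KC region and inside the TL region, and at OBP4 they covered 86.3% and 92.7% of it. The other 63 reproducible regions were also wider in experiment 2, with medians of 359 bp in KC and 361 bp in TL against 209 bp in experiment 1. Containment was not counted for them, so it is not read as particular to the 7 genes.

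All 7 summits of experiment 1 fell between protein-coding genes, and 5 of them lay within 1000 bp of the named gene, the exceptions being OBP4 and ERF38. The same 7 summits were between protein-coding genes in KC and in TL. These positions were not counted for the other reproducible regions or for all regions, so they are not read as particular to the 7 genes. With non-coding genes counted as well, a choice made after the regions were seen, 7 were between genes in experiment 1 and 6 in KC and in TL, JAZ6 being the one that changed. The gene table gives no strand here, so the side of a gene on which a summit lay is not called upstream or downstream.

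**Figure D3:**
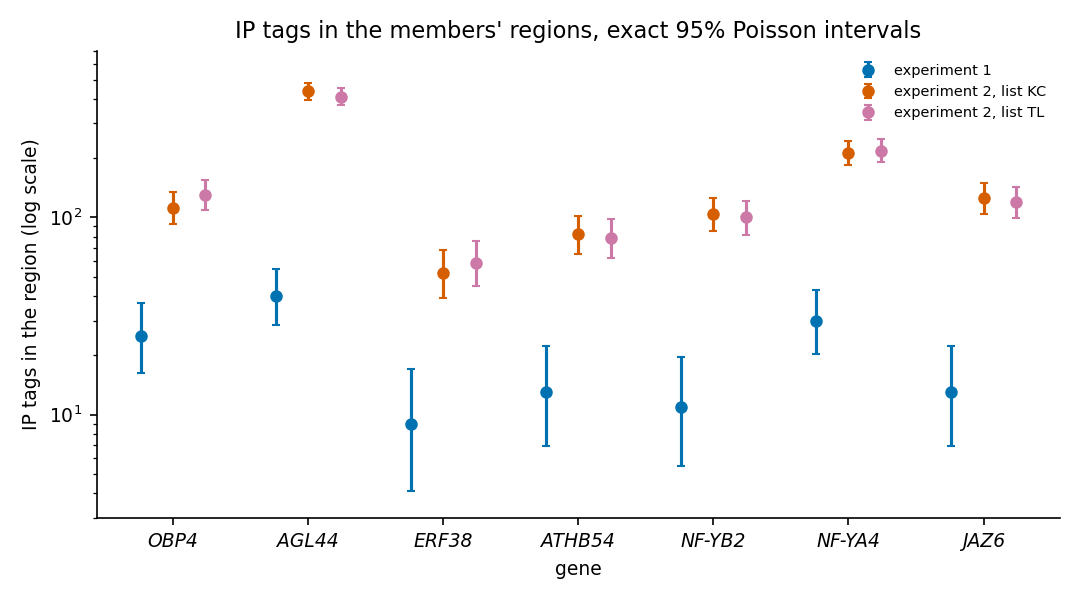
IP tags in each region on a log scale, with exact Poisson intervals (95%) for counting error, for the 3 HA-PRR7 lists at the 7 genes. AGL44 (436 and 410 tags) and NF-YA4 (213 and 218) lie apart from the rest in KC and TL. In experiment 1, where counts ran from 9 to 40 tags, the intervals overlap between neighbours in the order by tags. The regions differ in width, and tags are not scaled to it.

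Ordered by IP tags, AGL44 stood first, NF-YA4 second and ERF38 last in each of the 3 lists. Tags were not scaled to region width, which in experiment 1 ran from 118 bp at ERF38 to 569 bp at AGL44. By IP signal at the summit AGL44 and NF-YA4 again led in each list, but NF-YB2 was last. ERF38 then took place 5 in experiment 1 and KC and place 4 in TL. In experiment 1 the order by tags was AGL44, NF-YA4, OBP4, ATHB54 level with JAZ6, NF-YB2 and ERF38, and the intervals overlapped in all 6 pairs of neighbours. In KC it was AGL44, NF-YA4, JAZ6, OBP4, NF-YB2, ATHB54 and ERF38, and in TL OBP4 and JAZ6 changed places. The intervals were apart in 2 of the 6 pairs of neighbours in each experiment 2 list, AGL44 from NF-YA4 and NF-YA4 from the next gene. Over all 21 pairs of the 7 genes, the intervals were apart in 15 in KC, 16 in TL and 6 in experiment 1. In experiment 1 these 6 were AGL44 from ATHB54, JAZ6, NF-YB2 and ERF38, and NF-YA4 from NF-YB2 and ERF38. AGL44 and NF-YA4 were apart from each other and from all the other genes in KC and TL, but not from each other or from OBP4 in experiment 1. The tag intervals of KC and TL overlapped at all 7 genes, but both lists come from the same sample, so nothing is read from this.

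Tag enrichment, the IP tags over the background tags for a region of that width, moved with single control tags in experiment 2. At OBP4 it was 11.1 in KC, where 0 control tags stood against 112 IP tags, and 5.30 in TL, where 2 stood against 130. At JAZ6 it was 7.36 in KC, where 1 control tag stood against 125 IP tags, and 4.89 in TL, where 2 stood against 120. TL thus gave these genes the lowest tag enrichments of the 7, although their IP tags were the third and the fourth highest. AGL44 (20.1 in KC and 18.1 in TL) and NF-YA4 (14.6 and 14.9) led in both lists. In experiment 1, NF-YA4 (11.5), OBP4 (9.91) and AGL44 (7.62) led, and JAZ6 (5.10), ATHB54 (4.82), NF-YB2 (4.32) and ERF38 (3.90) followed in the order they also had in KC.

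Beside the other 63 reproducible regions, which include a mitochondrial one, the 7 lay within the range of the others, with medians of fold and IP tags level or somewhat lower. Their median fold in experiment 1 was 12.0 (range 6.51 to 17.3), against 12.0 (2.81 to 33.4) for the others. In KC the medians were 15.2 and 16.7 and in TL 15.7 and 16.5. Median IP tags were 13 against 15 in experiment 1, 112 against 138 in KC and 120 against 134 in TL. By IP tags the median rank of the 7 was 118 against 80 in experiment 1, 89 against 61 in KC and 75 against 56 in TL, with rank 1 as the highest. Their median width was higher in experiment 2, at 434 bp against 359 bp in KC and 434 bp against 361 bp in TL. In experiment 1 it was 197 bp against 209 bp. No test was run, since all of these regions were selected on the same lists.

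**Figure D4:**
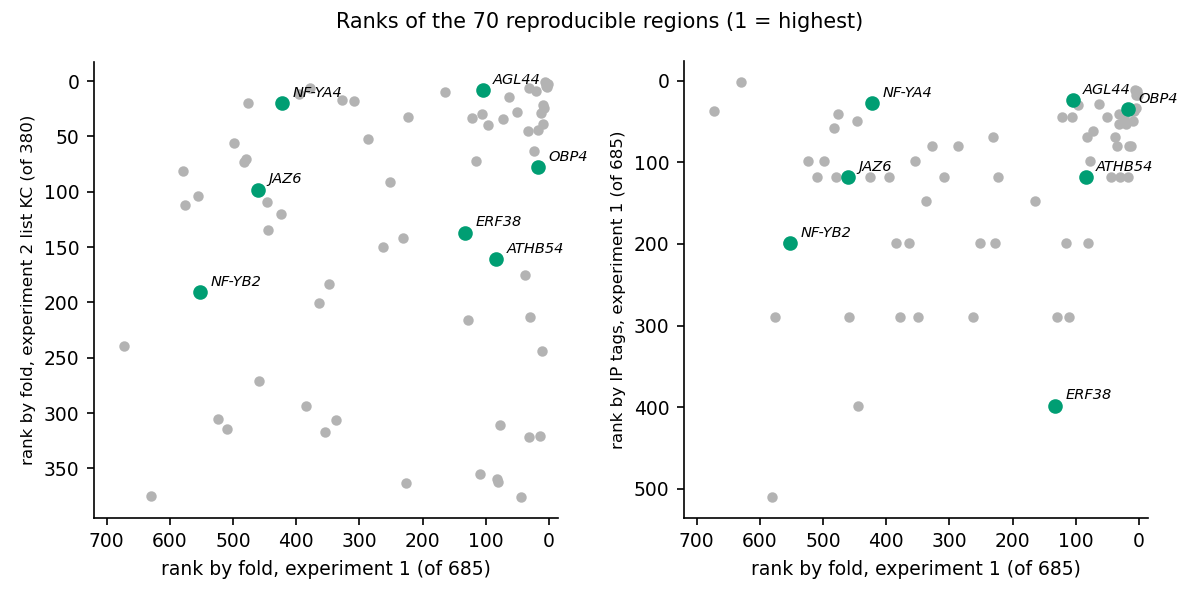
Each point is 1 of the 70 reproducible regions, placed by its rank by fold in experiment 1 (horizontal) and by its rank by fold in KC (left) or by IP tags in experiment 1 (right), with rank 1 as the highest; the 7 named genes are green. OBP4 ranks 17 in experiment 1 and 78 in KC, NF-YA4 ranks 422 and 20, and on the right NF-YA4 moves to rank 28 and ERF38 to rank 398 by tags.

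Likeness to other regions was measured as the sum of the rank differences by fold over experiment 1, KC and TL, across the 70 reproducible regions. Ranks were not scaled to list length (685, 380 and 355 regions), so differences in experiment 1 can weigh more. The single sample of experiment 2 also enters through both KC and TL. OBP4 was most like the region whose nearest gene is AT2G18780 (ranks 10, 39 and 35, sum 48), followed by those nearest MSL5, a mechanosensitive channel gene (sum 55), and 1 with no protein-coding gene within 3000 bp (sum 61). AGL44 was most like the regions nearest the clock gene EPR1 (AT1G18330; ranks 106, 30 and 30, sum 44), the morning clock gene LHY (63, 14 and 14, sum 53) and the B-box gene BBX29 (sum 58). NF-YA4 was most like those nearest EXO70H7, an exocyst subunit gene (395, 12 and 11, sum 37), HY5, the bZIP factor of seedling greening (477, 20 and 19, sum 61), and the clock gene GI (378, 6 and 5, sum 66).

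JAZ6 had as its nearest matches the regions at PUB19, a U-box ubiquitin ligase gene, and AT3G27250 (sum 69 each), then AT1G15740 (sum 74). ERF38 and ATHB54 were each other's second match (sum 151). The first matches were the region nearest EMF1, a floral repressor gene, for ERF38 (sum 115) and that nearest APR2, a sulfate reduction gene, for ATHB54 (sum 138). The third were those nearest FER1, a ferritin gene (sum 170), and MPK15, a protein kinase gene (sum 152). For NF-YB2 the nearest match was the region at BT2 (sum 166), then a mitochondrial region (sum 192) and UGP2 (sum 211). These matches depend on the measure. Ranked by IP tags in place of fold, a choice made after the values were seen, 2 of the 21 matches stayed the same: AT2G18780 for OBP4 and LHY for AGL44. NF-YA4 was then most like the regions nearest AT2G30760 (sum 20), DDB2 (sum 21) and LHY (sum 23). By tags the first match was the region nearest RBR1 for NF-YB2 (sum 6), BBX28 for AGL44 (sum 11) and STO for JAZ6 (sum 15). It was that nearest AT2G18780 for OBP4 (sum 36), AT3G27250 for ATHB54 (sum 68) and AT1G18900 for ERF38 (sum 119). The sums describe 3 lists of 2 samples.

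Relatives of the 7 genes were looked up in 8 family lists of 72 genes: Dof factors named OBP, the AGL17 clade of MADS genes, ERF34 to ERF43, class I HD-Zip genes, NF-YA, NF-YB, NF-YC and JAZ genes. Leaving out the 7 themselves, 0 of 65 relatives had a reproducible region, beside 0.561% of all protein-coding genes, a background so low that a count of 0 in a list of this size is near it. In HA-PRR7 experiment 1, 3 of 65 had a region, beside 5.01% of all genes. In KC the count was 0, beside 2.9%, in TL 2, beside 2.71%, and in prr7-3 it was 0, beside 1.03%. These counts were near or below the background, and nothing particular to the families is read from them.

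The 5 relatives with a region each had it in 1 list. OBP1, another Dof factor gene, held the summit of an experiment 1 region with 10 IP tags and 12.8-fold enrichment (rank 75). NF-YA10, an A subunit gene, had an experiment 1 region with 9 IP tags 43 bp away (5.53-fold), and NF-YC1, a C subunit gene, had one with 8 IP tags 2111 bp away (8.45-fold), closer to XTH11 at 616 bp. HB-7 (ATHB7), a class I HD-Zip gene responsive to water deficit and abscisic acid, had a TL region with 56 IP tags 1894 bp away (10.97-fold). LEC1, an embryonic B subunit gene, had a TL region with 85 IP tags and 3 control tags 2790 bp away (5.20-fold), with PIP5K1 nearer at 2222 bp. No relative from the AGL17 clade, the ERF list or the JAZ list had a region in any of the 4 lists, among 3, 9 and 11 relatives. The share of all genes with a region in any of the 4 lists was not computed. It was at most 5.01% in any single list, so nothing is read from this absence in such short family lists. Of the 25 NF-Y subunit genes listed, 10 for A, 10 for B and a partial 5 for C subunits, NF-YA4 and NF-YB2 were the 2 with a reproducible region, as they had been chosen to be.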

How the data were processed

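Per the submitters' processing notes, alignment used Bowtie (version not stated) and the TAIR10 genome. The peak caller, settings and control behind the lists are not stated in the labels or file headers. Each deposited list gives, per region, the IP and control signal, a fold ratio of these signals, whole-number tag counts of both libraries, a tag enrichment and -log10 q values, all written by the authors' caller. Tested on the values, the fold was the ratio of IP to control signal, the control being raised to 1 where lower, in 100% of regions within 1%. The tag enrichment was the IP tags divided by the scaled control tags or, where larger, by a uniform background for the region's width (300 bp if narrower), also in 100% within 1%, which gave the depths quoted.

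Regions were read with Python 3.11.15 and NumPy 2.4.6. Regions were called overlapping from 1 bp. Genes and distances come from the RefSeq gene table of TAIR10.1 (symbols matched all 72 listed genes), whose nuclear chromosomes were taken as numbered like TAIR10. Gene ends can differ between annotations, so distances may differ from those to TAIR10 spans. Tag counts carry exact Poisson intervals (95%, SciPy 1.17.1). Ranks are by fold within a list unless stated. Overlap and distance functions were tested on simulated data. The 7 genes and the family lists were chosen with earlier results of these data known. Named genes were the 7, their neighbours, relatives with a region, and the 3 regions with the most alike ranks. Nothing was tested between groups: lists of called regions give no value where none was called, and no list of the experiment 2 mutant IP was used. Planned matches of sequence motifs were not run.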

Additional observations from a re-analysis of the deposited data

How the results depend on the processing

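Several counts could not move: the 7 genes were chosen for regions in both experiments, so requiring 1 experiment, or a region in each list, returns 7 by construction, and a count of 0 relatives cannot fall under stricter settings. Of those that could, with a limit of 1000 bp, 5 of the 7 genes had a reproducible region (without OBP4 and ERF38). Taking only the nearest protein-coding gene left 6 (without ATHB54). Keeping the regions of each list from the median q value up left 5 (without ERF38 and NF-YB2). Keeping those from the median fold up left 4 (without NF-YB2, NF-YA4 and JAZ6), fewer regions entering by construction. Relatives with a region were 0 without replicate 1 and 3 without replicate 2, where experiment 1 alone is required. The median rank of the 7 genes in experiment 1 was 133 by fold, 118 by IP tags or by q value, and 253 with 1 added to both signals. Of 63 single ranks under these measures, 39 stayed within 1.5 times, and 2 of 21 rank matches were shared between fold and IP tags. No paired analysis was possible because each result is a count or a rank within region lists and comes from no test. Motif matches were not run. Depth limits experiment 1, where the regions rest on 9 to 40 IP tags, and the control of 0 to 2 tags limits folds in experiment 2.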
